A study of Mus musculus with 12 samples.

Results

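The genes described here were almost silent in 1 set of mouse mammary tumoursphere cultures and plainly expressed in the other. They were selected on their counts, as genes with at most 3 reads in each of the 6 libraries labelled LM1 or LM9 and at least 10 CPM (counts-per-million, scaled to each library's total) in each of the 6 libraries labelled as Nfib knockouts. Of 18278 genes, 173 (0.946%) met these limits, and 150 remained after 23 genes of families such as Hox, collagen, serpin, Wnt and cadherin genes, together with a few single genes, were left out. The difference between knockout-labelled and parental libraries chose these members, so it is given below as a description, with no test of it for any member. The opposite limits, at most 3 reads in each knockout-labelled library and at least 10 CPM in each parental library, were met by 48 genes.

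All cells descended from a mouse mammary tumour line that carries a mutant PIK3CA transgene under the CAG promoter and a doxycycline-inducible piggyBac transposon system. LM1 and LM9, the parental groups here, are lines isolated from lung metastases of that line in NOD/SCID mice. LM1 Nfib KO (LM1KO) and LM9 Nfib KO (LM9KO) are each a pool of clones edited with CRISPR-Cas9 to disrupt Nfib, a nuclear factor I transcription factor, and no such cloning step is described for LM1 and LM9. Each of the 4 groups had 3 libraries, from tumourspheres grown for 6 days at 10000 cells per mL without serum and with 20 ng per mL each of EGF and basic FGF. The labels do not say whether the 3 libraries of a group came from separate cultures, so tests measure only the spread between these libraries.

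Tumourspheres are cell clusters that form from dissociated cells without attachment and are used to enrich for cells able to initiate growth. A gene with no transcript in a line is often held in closed or methylated chromatin, which was not measured here. Many genes of this kind are lineage genes, whose products are normally made in 1 tissue, such as a water channel in the kidney or a structural protein in the hair follicle. Nuclear factor I proteins bind a palindrome built on TTGGC or 1 arm of it, and they can raise or lower transcription of their targets.

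Totals ran from 29249075 to 37162594 counts, so 3 reads were worth 0.0807 to 0.103 CPM. Nfib itself was not lower in the libraries labelled as its knockouts, at 251 to 273 CPM against 98.9 to 228 CPM in the parental libraries. Its fitted log2 difference was 0.40 (SE 0.12, limma-voom adjusted p = 0.00735), and counts over all exons do not show whether a reading frame was disrupted. The keratins Krt8 and Krt18, used as markers of luminal cells within the mammary gland, averaged 249 and 508 CPM in parental libraries and 0.113 and 0.0287 CPM in knockout-labelled libraries. In log2 CPM across genes, libraries labelled LM1KO and LM9KO correlated as closely with each other (r = 0.993 to 0.994) as with their own label (0.993 to 0.994). LM9 replicate 1 correlated more closely with LM1 libraries (0.991 to 0.992) than with the other LM9 libraries (0.963 to 0.965). The part of these features in the results below was not tested, and groups are named by their labels throughout. In such bulk libraries, fewer expressing cells and less RNA per cell cannot be told apart.

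Promoters are shown for the member with the highest level per length, Aqp2, and for 3 members of the epidermal differentiation complex that differ in sequence. The 250 bases before the transcription start are given 5′ to 3′ on the strand of the gene, from RefSeq on GRCm38.p6, with motif matches in capitals. The Aqp2 window lies at chr15:99578806-99579055, plus strand, and the Lce1g window at chr3:92752339-92752588, minus strand. The Prr9 window lies at chr3:92123948-92124197, minus strand, and the Tchh window at chr3:93442080-93442329, plus strand.
Aqp2: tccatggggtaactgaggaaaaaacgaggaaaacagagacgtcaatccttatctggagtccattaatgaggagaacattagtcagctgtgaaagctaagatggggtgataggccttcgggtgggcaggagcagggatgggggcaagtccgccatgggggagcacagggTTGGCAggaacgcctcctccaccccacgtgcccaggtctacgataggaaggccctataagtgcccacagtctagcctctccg
Lce1g: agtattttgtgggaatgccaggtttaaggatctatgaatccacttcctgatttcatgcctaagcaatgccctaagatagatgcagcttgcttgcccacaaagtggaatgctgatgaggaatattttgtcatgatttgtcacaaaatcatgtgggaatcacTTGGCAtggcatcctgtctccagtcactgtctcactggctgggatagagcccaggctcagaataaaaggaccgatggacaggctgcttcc
Prr9: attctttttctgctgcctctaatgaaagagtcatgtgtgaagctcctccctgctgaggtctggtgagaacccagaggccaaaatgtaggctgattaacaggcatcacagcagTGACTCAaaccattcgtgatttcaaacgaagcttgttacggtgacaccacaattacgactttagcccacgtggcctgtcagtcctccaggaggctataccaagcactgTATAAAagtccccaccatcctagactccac
Tchh: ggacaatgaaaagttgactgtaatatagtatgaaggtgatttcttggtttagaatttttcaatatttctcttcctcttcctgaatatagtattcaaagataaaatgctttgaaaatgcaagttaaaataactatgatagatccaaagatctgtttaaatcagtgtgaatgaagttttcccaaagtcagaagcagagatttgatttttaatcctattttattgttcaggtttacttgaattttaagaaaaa

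Motifs were searched on both strands, as the full nuclear factor I palindrome, an arm of it with 1 more base, TTGGCA, the TATA box TATAAA and the AP-1 site TGANTCA. The capitals in the Aqp2 and Lce1g windows mark 1 match each to TTGGCA. In the Prr9 window they mark an AP-1 match followed by a TATA box close to the start, and the Tchh window held none of the 4 motifs. Of all 32851 promoters in the table, 12.28% held TTGGCA, 12.368% TATAAA, 6.749% TGANTCA and 0.037% the full palindrome. Entries were found for 115 of 150 members (76.7%). Of these 115, 14 held TTGGCA, 9 TATAAA, 10 TGANTCA and 0 the full palindrome, with 1 start taken per member. Members without an entry were not searched, and these counts were not tested. A match describes these letters only.

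The 150 members comprised 146 protein-coding genes, 2 lincRNAs (Gm41386 and Gm10451), 1 antisense RNA (Gm47815) and 1 transcribed processed pseudogene (BC106175). Their mean level over the 6 knockout-labelled libraries ran from 10.75 to 1157 CPM with a median of 22.1 CPM. Only 4 members reached 100 CPM, 20 lay between 50 and 100, 62 between 20 and 50, and 64 below 20. Per kb of exonic length, the median member reached 5.40 CPM per kb, which placed it at percentile 54.4 of all measured genes (range 25.2 to 99.8). The members were thus spread from the lower part to the top of the expression range in these libraries. Their exonic length had a median of 5100 bases, against 4442 bases for all genes with at least 10 CPM in each knockout-labelled library.

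In the parental libraries, 48 members had no read at all, 43 had at most 1 read in any library, 40 at most 2 and 19 at most 3. All 150 members together gave 62, 68 and 63 reads in LM1 and 52, 42 and 53 reads in LM9, against 201902 to 220522 reads in each knockout-labelled library. In CPM, this parental sum was 0.0236% to 0.0363% of the knockout-labelled mean. For the 66 members without a read in LM1, 3 reads per library were taken as the floor, and LM1KO was at least 106-fold higher for the lowest of them and at least 1187-fold higher for the highest. For the 87 members without a read in LM9, the corresponding bounds for LM9KO were at least 109-fold and at least 11127-fold higher. Floors and shares of this kind cover counting error only.

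**Figure D1:**
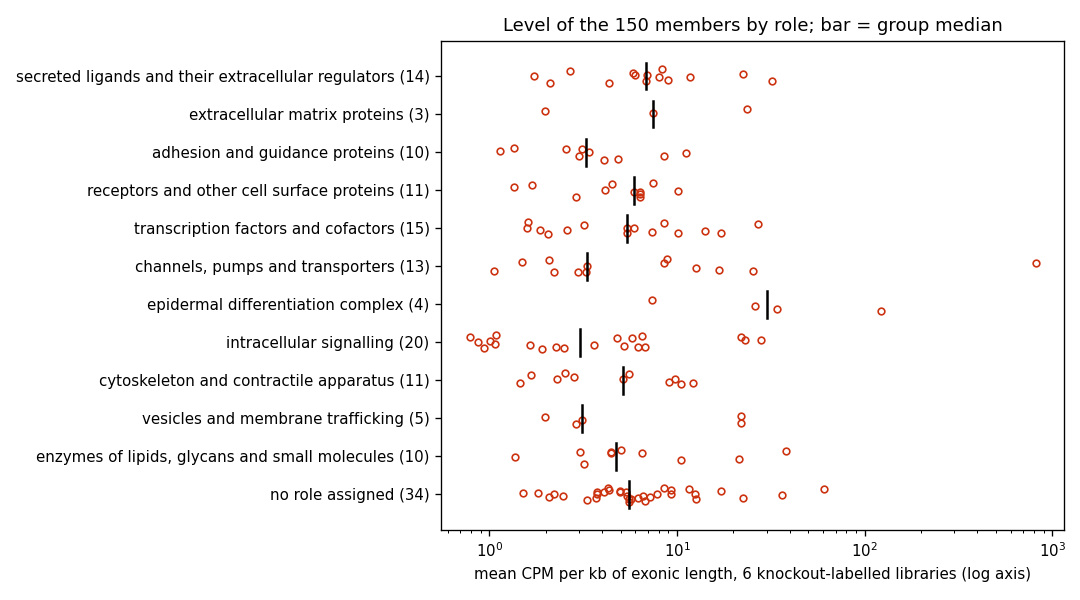
Mean CPM per kb of exonic length (log axis) of each of the 150 members over the 6 knockout-labelled libraries, grouped by the role assigned to it, with the number of members in brackets and black bars at group medians. The 4 members of the epidermal differentiation complex had the highest group median (30.2 CPM per kb), and Aqp2, at 815 CPM per kb, stood apart from every other member.

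Channels, pumps and transporters (13 members) held the strongest of all. Aqp2 encodes the vasopressin-regulated water channel of the kidney collecting duct and lies at chr15:99579055-99584547, plus strand (GRCm38, as all gene positions here). It measured 1202, 1175 and 1229 CPM in LM1KO and 1081, 1099 and 1157 CPM in LM9KO, and the parental libraries gave 1 read in LM1 replicate 2 and none in the other 5 parental libraries. Every knockout-labelled library was above 1000 CPM, and LM9KO was at least 11127-fold higher than the floor in LM9. Aqp2 alone made up 19.5% of the summed CPM of all members. Per length it reached 815 CPM per kb, at percentile 99.8 of all measured genes. Next in the group came a pair of monocarboxylate transporters. Slc16a9 (MCT9), which has been linked to carnitine transport, measured 98.7, 98.9 and 97.9 CPM in LM1KO and 98.9, 94.9 and 102 CPM in LM9KO, and the parental libraries gave 1 read in LM1 replicate 2, 3 in LM1 replicate 3 and 3 in LM9 replicate 1 and none in the other 3 parental libraries. Slc16a3 (MCT4), the lactate exporter of glycolytic cells, measured 92.8, 87.7 and 94.03 CPM in LM1KO and 86.3, 86.9 and 87.2 CPM in LM9KO, with 3 reads in LM1 replicate 1 and none in the other 5 parental libraries. The organic anion transporter Slco3a1 measured 77.2, 75.6 and 75.8 CPM in LM1KO and 76.4, 72.6 and 72.7 CPM in LM9KO, and Fxyd6, a regulator of the sodium pump, 52.3, 51.1 and 52.9 CPM in LM1KO and 48.96, 51.7 and 53.9 CPM in LM9KO. The 6 libraries of each of these transporters lay close together, and the groups did not overlap, as the selection required. The remaining 8 members, among them the calcium pump Atp2a3, the calcium channel subunit Cacna2d1 and the chloride intracellular channels Clic5 and Clic6, ranged from 11.3 to 44.8 CPM in mean level.

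**Figure D2:**
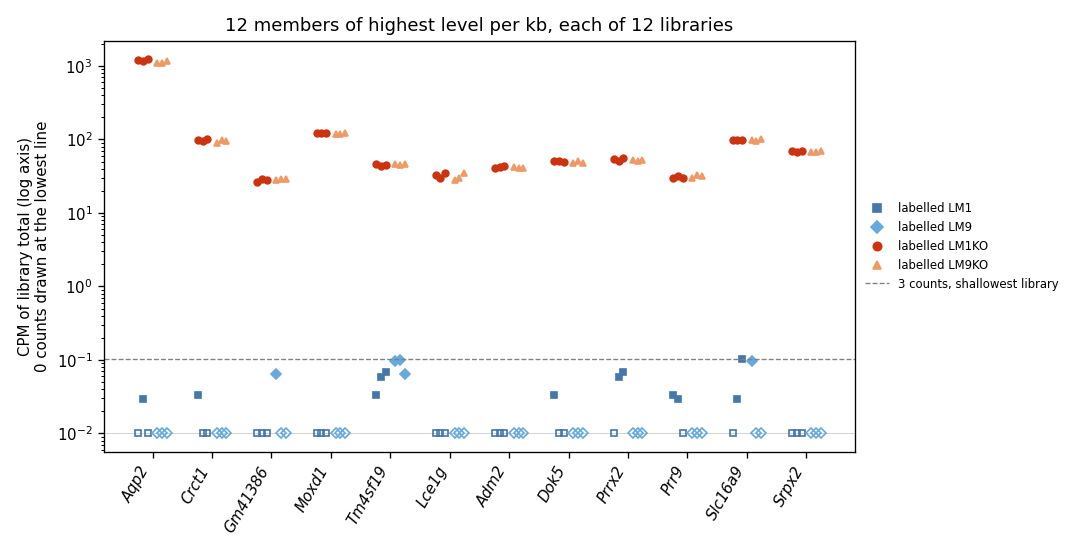
CPM of the library total (log axis) in each of the 12 libraries for the 12 members of highest mean CPM per kb, with open symbols at the lowest line for 0 counts and a dashed line at 3 counts in the shallowest library. The 6 knockout-labelled points of each gene sit together between 26.4 and 1229 CPM, while parental points sit at or below the dashed line.

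Secreted ligands and their extracellular regulators (14 members) had several partners from the same signalling systems. Adm2, a vasoactive peptide of the calcitonin family, was the highest per length (32.1 CPM per kb). It measured 40.9, 41.7 and 43.1 CPM in LM1KO and 41.9, 41.4 and 40.7 CPM in LM9KO, with no read in any parental library. Gdnf, the RET ligand that guides ureteric bud growth and supports neurons, measured 84.04, 81.1 and 83.02 CPM in LM1KO and 85.3, 81.6 and 77.96 CPM in LM9KO, with 1 read in LM1 replicate 2, 1 in LM1 replicate 3 and 3 in LM9 replicate 3 and none in the other 3 parental libraries. The secreted protein Ism1 measured 34.4, 34.9 and 36.02 CPM in LM1KO and 32.6, 37.7 and 33.6 CPM in LM9KO, and the neurotrophin Ntf3 14.7, 13.8 and 13.5 CPM in LM1KO and 13.99, 14.4 and 15.1 CPM in LM9KO. Neither ligand had more than 1 read in a parental library. Wnt regulators were present on both sides, as the agonist Rspo1 (17.98, 17.8 and 16.4 CPM in LM1KO and 17.4, 16.8 and 17.3 CPM in LM9KO) and the inhibitors Dkk2 (25.2, 24.9 and 25.9 CPM in LM1KO and 26.3, 23.7 and 26.7 CPM in LM9KO) and Wif1 (14.5, 14.2 and 15.1 CPM in LM1KO and 13.8, 13.7 and 15.6 CPM in LM9KO). The BMP antagonist Grem1 measured 29.1, 28.8 and 27.4 CPM in LM1KO and 28.04, 28.5 and 29.4 CPM in LM9KO. Insulin-like growth factor regulators comprised the binding protein Igfbp5 (49.9, 49.3 and 47.8 CPM in LM1KO and 47.9, 48.1 and 45.5 CPM in LM9KO), the protease Pappa that cleaves it (30.5, 29.2 and 27.8 CPM in LM1KO and 29.5, 31.3 and 29.5 CPM in LM9KO) and Stc2, an inhibitor of that protease (23.4, 23.6 and 22.7 CPM in LM1KO and 20.9, 22.2 and 21.4 CPM in LM9KO). All of these Wnt, BMP and insulin-like growth factor regulators had at most 2 reads in any parental library. The other 3, Scube1, Psg18 and Ndnf, had means of 17.5 to 20.6 CPM.

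Extracellular matrix genes numbered 3 once collagens had been set aside by the selection, and none of them had a parental read. Srpx2, a secreted sushi-repeat protein, measured 70.2, 68.03 and 70.4 CPM in LM1KO and 66.7, 67.6 and 68.6 CPM in LM9KO. Fbln5, which organises elastic fibres, measured 52.5, 52.8 and 51.4 CPM in LM1KO and 54.5, 48.9 and 49.4 CPM in LM9KO, and Smoc2, a calcium-binding matricellular protein, 13.99, 13.8 and 13.5 CPM in LM1KO and 15.3, 13.6 and 12.2 CPM in LM9KO. Srpx2 was thus the highest of the 3 both in CPM and per length (23.5 CPM per kb).

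Adhesion and guidance proteins (10 members) included receptors of axon guidance. Flrt2, a ligand of Unc5 guidance receptors, measured 88.2, 85.5 and 83.7 CPM in LM1KO and 84.4, 91.5 and 87.1 CPM in LM9KO and had no read in any parental library. Plxna2, a semaphorin receptor, measured 59.3, 56.2 and 58.8 CPM in LM1KO and 59.2, 57.99 and 58.2 CPM in LM9KO, and Robo2, the receptor for Slit proteins, 43.2, 45.3 and 41.6 CPM in LM1KO and 39.8, 45.7 and 44.5 CPM in LM9KO. Ncam1, the neural cell adhesion molecule, measured 25.5, 27.00 and 27.9 CPM in LM1KO and 26.1, 28.4 and 27.6 CPM in LM9KO, with no read in any parental library. All 4 are proteins best known from the nervous system. The desmosomal plaque protein Pkp1, by contrast an epithelial gene, measured 43.4, 44.4 and 43.1 CPM in LM1KO and 42.4, 42.1 and 42.7 CPM in LM9KO. The immunoglobulin adhesion proteins Cadm1 and Igsf11 measured 42.7, 43.5 and 41.4 CPM in LM1KO and 39.8, 44.8 and 43.4 CPM in LM9KO and 21.2, 22.2 and 20.7 CPM in LM1KO and 21.5, 21.3 and 23.2 CPM in LM9KO. Jam2, Ctnnd2 and Pcdh19 were lower, with means of 11.9 to 18.1 CPM.

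Receptors and other cell surface proteins (11 members) spanned neural, immune and developmental types. Ptprg, a receptor tyrosine phosphatase, had the highest CPM of the group (69.5, 69.2 and 68.99 CPM in LM1KO and 68.1, 71.6 and 69.8 CPM in LM9KO), and Glrb, the beta subunit of the glycine receptor, the highest level per length (10.1 CPM per kb). Glrb measured 47.1, 48.5 and 42.8 CPM in LM1KO and 43.7, 49.8 and 49.4 CPM in LM9KO, and the parental libraries gave 3 reads in LM1 replicate 2 and none in the other 5 parental libraries. Lrp4, the agrin receptor of the neuromuscular junction, measured 47.7, 47.3 and 48.2 CPM in LM1KO and 47.2, 45.9 and 46.99 CPM in LM9KO and was among the steadiest members. The serotonin receptor Htr2a measured 23.3, 23.2 and 22.5 CPM in LM1KO and 22.3, 23.2 and 23.9 CPM in LM9KO, and the adhesion receptor Adgrf4 19.5, 18.9 and 19.4 CPM in LM1KO and 20.8, 19.4 and 18.6 CPM in LM9KO. Receptors of immune cells were lower. Cxcr6, the receptor for Cxcl16, measured 10.97, 11.6 and 12.4 CPM in LM1KO and 13.5, 12.9 and 12.3 CPM in LM9KO, Cd244a 13.8, 14.3 and 13.1 CPM in LM1KO and 15.4, 14.8 and 13.8 CPM in LM9KO and the complement inhibitor Cd59a 14.02, 12.6 and 13.2 CPM in LM1KO and 13.8, 13.02 and 14.5 CPM in LM9KO. A vomeronasal pheromone receptor gene, Vmn2r79, measured 18.3, 19.2 and 18.2 CPM in LM1KO and 21.4, 19.2 and 19.9 CPM in LM9KO. Reads of such a large receptor family can be shared between near-identical copies, and their handling is not given in the sources used here.

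Transcription factors and cofactors (15 members) were led by a pair of related homeobox genes of embryonic mesenchyme. Prrx1 (chr1:163245119-163313710, minus strand) measured 193, 191 and 179 CPM in LM1KO and 175, 201 and 194 CPM in LM9KO, with 1 read in LM1 replicate 1, 2 in LM1 replicate 2 and 3 in LM1 replicate 3 and none in the other 3 parental libraries. Its paralogue Prrx2 measured 54.1, 50.9 and 55.4 CPM in LM1KO and 51.9, 51.2 and 52.6 CPM in LM9KO, with 2 reads in LM1 replicate 2 and 2 in LM1 replicate 3 and none in the other 4 parental libraries. Per length, Prrx2 stood above Prrx1 (26.9 against 17.1 CPM per kb). A pair of Pax genes of unlike lineages was also present. Pax5, which specifies B lymphocytes, measured 47.4, 48.5 and 46.6 CPM in LM1KO and 47.6, 49.1 and 48.1 CPM in LM9KO, and Pax3, of neural crest and muscle precursors, 11.2, 10.5 and 11.7 CPM in LM1KO and 12.6, 11.4 and 11.7 CPM in LM9KO, just above the limit of 10 CPM. Snai2 (Slug), a repressor of epithelial genes in neural crest and mammary basal cells, measured 12.3, 11.1 and 11.4 CPM in LM1KO and 10.8, 13.2 and 12.3 CPM in LM9KO, with no read in any parental library. Nuclear receptors comprised Nr1h4, the bile acid receptor (21.6, 24.1 and 23.3 CPM in LM1KO and 23.6, 23.6 and 23.4 CPM in LM9KO), Rorb (37.6, 35.3 and 34.03 CPM in LM1KO and 35.1, 35.1 and 36.3 CPM in LM9KO) and the thyroid hormone receptor Thrb (11.9, 12.2 and 11.4 CPM in LM1KO and 11.01, 12.2 and 11.7 CPM in LM9KO). Dlx3, a homeobox gene of hair and placenta, measured 23.04, 21.8 and 22.5 CPM in LM1KO and 21.5, 22.4 and 22.3 CPM in LM9KO, and the LIM-only cofactor Lmo1 21.9, 21.3 and 23.7 CPM in LM1KO and 22.2, 20.4 and 22.5 CPM in LM9KO. The remaining 5, Eya4, Irx5, Dach2, Greb1 and Creb3l1, had means of 14.0 to 24.5 CPM.

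Intracellular signalling genes (20 members) formed the largest assigned group. Insc, an adaptor of spindle orientation in asymmetric division, measured 79.8, 81.7 and 81.9 CPM in LM1KO and 83.7, 79.03 and 82.9 CPM in LM9KO. Gng4, a gamma subunit of G proteins, measured 74.3, 76.96 and 79.8 CPM in LM1KO and 75.5, 75.9 and 78.4 CPM in LM9KO. Dok5, a docking protein of receptor tyrosine kinases, measured 50.2, 50.2 and 49.6 CPM in LM1KO and 47.9, 51.1 and 47.6 CPM in LM9KO and was the highest of the group per length (27.96 CPM per kb). In none of these did a parental library exceed 2 reads. The kinases Mapk4 and Prkd1 measured 36.4, 38.02 and 36.9 CPM in LM1KO and 35.7, 36.1 and 35.1 CPM in LM9KO and 22.8, 24.8 and 22.9 CPM in LM1KO and 24.6, 23.9 and 23.6 CPM in LM9KO. The group held 3 cyclic nucleotide phosphodiesterases, Pde3a, Pde10a and Pde7b, with means of 11.6 to 13.8 CPM, and regulators of small GTPases such as Dock11 and Psd4. No parental read fell in any of these phosphodiesterase genes.

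Cytoskeletal and contractile genes numbered 11. Ppfibp2, a liprin of cell edges, measured 104, 99.1 and 107 CPM in LM1KO and 105, 103 and 102 CPM in LM9KO, with no read in any parental library. Its body overlaps the gene Cyb5r2, which was also without parental reads and averaged 7.43 CPM in knockout-labelled libraries. Pgm5, a protein of muscle adherens junctions, measured 43.3, 44.01 and 45.7 CPM in LM1KO and 43.1, 43.9 and 44.04 CPM in LM9KO, Fhl1, a LIM protein of muscle, 40.2, 37.7 and 37.6 CPM in LM1KO and 37.5, 39.96 and 39.9 CPM in LM9KO, and Nebl, a Z-disc protein of heart muscle, 42.4, 45.4 and 39.97 CPM in LM1KO and 39.5, 46.8 and 45.3 CPM in LM9KO. The LIM protein Wtip measured 23.7, 22.3 and 21.9 CPM in LM1KO and 19.1, 21.3 and 21.02 CPM in LM9KO. Rflna was the member nearest the CPM limit, at 11.2, 10.4 and 11.1 CPM in LM1KO and 10.8, 10.8 and 10.2 CPM in LM9KO.

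Among 5 genes of vesicles and membrane trafficking, Reep1, which shapes the endoplasmic reticulum, measured 88.9, 90.00 and 87.1 CPM in LM1KO and 86.4, 94.4 and 91.4 CPM in LM9KO, and Mal, a raft protein of apical transport in kidney and of myelin, 60.9, 62.8 and 60.4 CPM in LM1KO and 64.04, 62.97 and 56.8 CPM in LM9KO. Cadps, a priming factor for dense-core vesicle release, measured 29.4, 30.1 and 30.1 CPM in LM1KO and 29.4, 30.2 and 28.7 CPM in LM9KO. Ehd3, of endosomal recycling, measured 19.1, 19.8 and 18.6 CPM in LM1KO and 18.7, 18.9 and 18.9 CPM in LM9KO and Scamp5 11.3, 10.8 and 11.2 CPM in LM1KO and 12.1, 11.3 and 12.2 CPM in LM9KO.

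Of 10 enzymes, Moxd1, a copper monooxygenase related to dopamine beta-hydroxylase, was the highest. It measured 120.4, 121 and 124 CPM in LM1KO and 119.7, 119.6 and 123 CPM in LM9KO, with no read in any parental library. Both lower bounds were large, at least 1187-fold over the floor in LM1 and at least 1208-fold in LM9. Moxd1 also had the smallest relative spread of all members over the 6 libraries (CV 1.40%). Plpp3, a phosphatase of lysophosphatidic acid and related lipids, measured 69.2, 68.00 and 70.4 CPM in LM1KO and 65.4, 66.9 and 65.2 CPM in LM9KO, and the secreted phospholipase Pla2g5 30.7, 30.3 and 30.4 CPM in LM1KO and 29.4, 30.4 and 30.4 CPM in LM9KO. Elovl4, which elongates very long fatty acids, measured 20.3, 19.9 and 18.04 CPM in LM1KO and 18.6, 21.2 and 20.5 CPM in LM9KO, and Gatm, the first enzyme of creatine synthesis in kidney, 15.04, 15.6 and 13.8 CPM in LM1KO and 14.96, 16.1 and 14.6 CPM in LM9KO. The rest, Bace2, Hs3st3b1, Chst8, Arsi and Xylt1, lay between 13.1 and 24.1 CPM.

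No role was assigned to 34 members. The lincRNA Gm41386 had the third highest level per length of all members (60.7 CPM per kb) and measured 26.4, 28.6 and 28.3 CPM in LM1KO and 28.04, 29.2 and 28.5 CPM in LM9KO. Tm4sf19, a tetraspan membrane protein, measured 46.2, 43.1 and 45.01 CPM in LM1KO and 46.2, 44.9 and 46.9 CPM in LM9KO, and Zfp365 90.8, 88.5 and 86.8 CPM in LM1KO and 88.6, 93.9 and 89.7 CPM in LM9KO. The antisense RNA Gm47815 (chr10:43034993-43050219, plus strand) lies within the body of another member, Sobp (chr10:43002500-43174530, minus strand), on the opposite strand. Gm47815 measured 37.97, 37.99 and 37.2 CPM in LM1KO and 37.9, 37.1 and 38.9 CPM in LM9KO and Sobp 12.8, 12.5 and 12.7 CPM in LM1KO and 11.8, 11.3 and 12.1 CPM in LM9KO. Whether counting used strand was not stated, so reads of this pair cannot be told apart with certainty. In all, 21 members overlap the body of another measured gene, and their values share this limit.

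The epidermal differentiation complex held 4 members. It is a cluster on chromosome 3 whose genes encode proteins of the cornified envelope and of hair, and they are normally silent outside stratified epithelium. Its extent was set on the annotation after values had been seen. Of 51 annotated genes with symbols of its families, which span chr3:92080271-93471980, 16 were measured here. The same interval held 8 other measured genes, most of them named only as gene models, which are not counted below. Of these, 7 reached 11 to 4143 reads in a parental library, and Gm4858 had at most 1. Crct1, a cysteine-rich envelope protein, measured 97.7, 95.3 and 102 CPM in LM1KO and 90.6, 97.9 and 95.5 CPM in LM9KO, with 1 read in LM1 replicate 1 and none in the other 5 parental libraries. Tchh (trichohyalin), which cross-links keratin in the inner root sheath of hair, measured 43.7, 43.6 and 39.4 CPM in LM1KO and 43.3, 45.4 and 42.98 CPM in LM9KO, with no read in any parental library. Lce1g, a late cornified envelope protein, measured 32.8, 29.4 and 34.4 CPM in LM1KO and 28.2, 30.2 and 34.5 CPM in LM9KO, and Prr9, a proline-rich protein of the same region, 29.6, 31.9 and 30.1 CPM in LM1KO and 29.6, 32.8 and 31.7 CPM in LM9KO. Crct1 stood highest in CPM and per length (122 CPM per kb).

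The other 12 measured genes of these families fell short of 10 CPM in at least 1 knockout-labelled library. Sprr1a, a small proline-rich envelope precursor, came closest, with 377, 409 and 406 reads in LM1KO, 344, 375 and 356 reads in LM9KO and none in any parental library. Lce3c gave 238, 219 and 240 reads in LM1KO and 221, 252 and 258 reads in LM9KO, and Lce3d, its neighbour, 111, 109 and 97 reads and 88, 103 and 119 reads. Kprp, a keratinocyte proline-rich protein, was the lowest, with 3 to 12 reads per library. None of the 16 exceeded 1 read in a parental library. A gene with so few parental reads is listed only if it has reads in other libraries, so the direction of all 16 was fixed and was not tested. Loricrin, involucrin and filaggrin, classical genes of this cluster, are not among the 16.

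**Figure D3:**
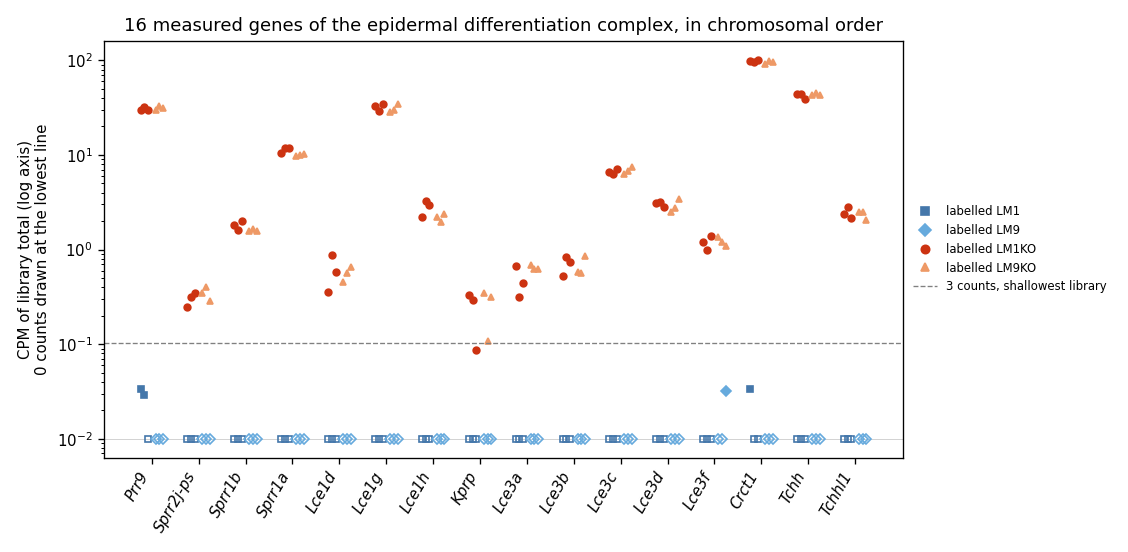
CPM of the library total (log axis) in each of the 12 libraries for the 16 measured family genes of the epidermal differentiation complex in chromosomal order, with open symbols at the lowest line for 0 counts. Levels in knockout-labelled libraries range from Crct1 at 90.6 to 102 CPM down to Kprp at 0.0878 CPM in its lowest library, and at most 1 read was seen in any parental library.

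Elsewhere the members were scattered over the genome. Only 4 lay within 100 kb of another member, namely Sobp with Gm47815 and Lrp4 with 1110051M20Rik, 12.8 kb apart. Within 500 kb there were 18, among them the pairs Ptprg and Cadps, Pax5 and Frmpd1, Rspo1 and Grik3, Homer2 and Hdgfl3, and Pcdh19 and Srpx2. The X chromosome carried 13 members (8.67% of members, against 3.66% of measured genes) and chromosome 8 only 1, where 5.10% of measured genes lie. These shares are given as descriptions.

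The genes flanking a member were not chosen by their values and so could be tested. Of 290 flanking genes that were not members, 162 (55.9%) were higher and 98 (33.8%) lower in the averaged contrast (the mean of LM1KO and LM9KO against the mean of LM1 and LM9) by limma-voom at an adjusted p under 0.05, beside 46.3% and 40.5% of all 18176 tested genes. A pair of these flanking genes met the count limits and had been left out by family. Without them, 160 of 288 (55.6%) were higher. Another 53 had fewer than 3 parental libraries with 8 or more reads. Every gene in the deposited table has at least 8 reads in its third-highest library, so these 53 were listed only with the help of knockout-labelled libraries and their direction was largely fixed. Without them too, 108 of 235 (46.0%) were higher and 98 (41.7%) lower, beside 39.6% and 46.1% of the genes tested under the same limit. Their median log2 fold change was 0.08, against -0.14 over those genes, and 16 (6.81%) were higher by a log2 fold change above 3, against 3.25%. Genes listed only with the help of parental libraries, such as Epha4, were not removed, and their lower direction was largely fixed too. By distance, 22 of 41 (53.7%) were higher within 10 kb of the member, 31 of 68 (45.6%) at 10 to 50 kb, 27 of 56 (48.2%) at 50 to 200 kb and 28 of 70 (40%) beyond. These shares by distance are given as descriptions. Flanking genes that overlap a member can share reads with it.

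Several flanking genes were paralogues of the member beside them. Aqp5, the water channel of salivary and lung epithelium, starts 6235 bases from Aqp2 and averaged 801 CPM in knockout-labelled against 32.9 CPM in parental libraries (log2 fold change 4.39, SE 0.12, adjusted p = 1.35e-11 by limma-voom). Igfbp2, 5458 bases from Igfbp5, averaged 594 against 0.217 CPM (log2 fold change 11.35, SE 0.26). Fxyd2, the kidney sodium pump subunit 3510 bases from Fxyd6, averaged 45.0 against 0.0278 CPM. Pla2g2e, 14460 bases from Pla2g5, averaged 74.8 against 0.163 CPM. Igfbp2, Fxyd2 and Pla2g2e missed the limit of 3 parental reads, with at most 13, 5 and 11 reads in any parental library. Il1rn, the interleukin-1 receptor antagonist, lies 16086 bases from Psd4 and averaged 445 against 0.196 CPM. Fxyd2, Pla2g2e and Il1rn were listed only with the help of knockout-labelled libraries, so their values are given with no call. Values in the opposite direction occurred too. Epha4, a guidance receptor 586179 bases from Pax3, averaged 0.00477 against 4.42 CPM. It was listed only with the help of parental libraries, so its values too are given with no call. Itga3, 43318 bases from Dlx3, averaged 33.4 against 1058 CPM (log2 fold change -5.27, SE 0.058). These genes were chosen after their values had been seen.

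**Figure D4:**
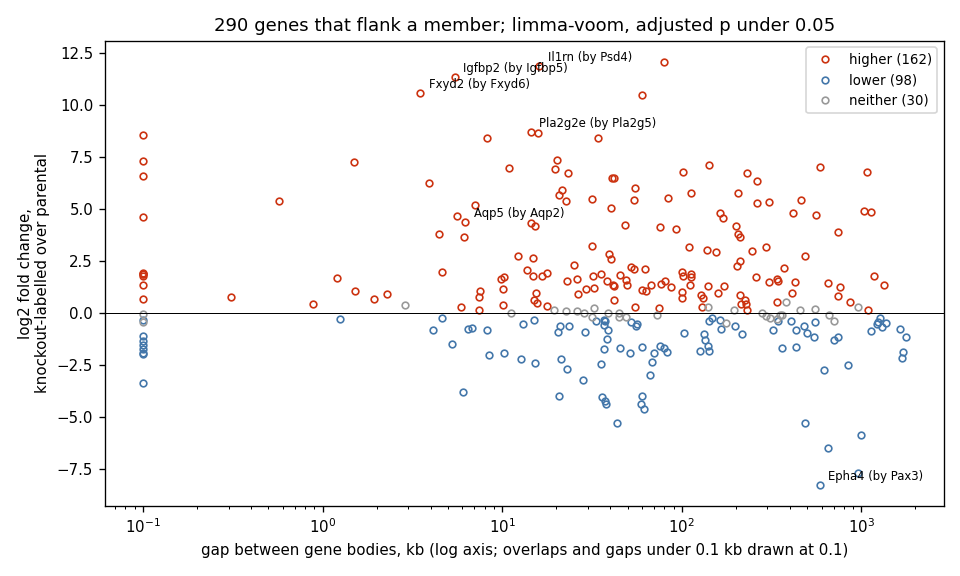
Log2 fold change of knockout-labelled over parental libraries for the 290 flanking genes against the gap in kb to the nearest member (log axis), coloured by the limma-voom call at an adjusted p under 0.05. There are 162 red (higher) and 98 blue (lower) points, and they include 53 flanking genes listed only with the help of knockout-labelled libraries, whose direction was largely fixed. Among the blue points, Epha4 was listed only with the help of parental libraries.

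Marker lists, counted with the members set aside, show what happened to other genes of the same lineages. Of 109 list genes tested, 6 met the count limits themselves (among them the members Aqp2, Ncam1 and Prrx1, the only members in any list). Another 35 had fewer than 3 parental libraries with 8 or more reads, so they were listed only with the help of knockout-labelled libraries and get no call. Of the other 68 genes, 15 were higher and 42 lower in the averaged contrast, beside 39.6% and 46.1% of the 15993 tested genes under the same limit. This limit keeps genes listed only with the help of parental libraries, such as Krt18 (0 to 4 knockout-labelled reads). Their lower direction was largely fixed, so counts of lower genes here and below are given as descriptions. In the kidney tubule and collecting duct list, 7 of 15 genes were measured. Of the 3 left by this limit, Slc12a1, the loop of Henle cotransporter (10.4 against 0.631 CPM), and Scnn1a (2.63 against 0.487 CPM) were higher, while Aqp3 was lower (1.07 against 11.6 CPM). Emx2, Pax8 and Pax2, with at most 1 parental read, averaged 4.21, 0.50 and 0.464 CPM in knockout-labelled libraries. Summed CPM of this list ran from 1099 to 1247 in knockout-labelled and from 7.73 to 22.5 in parental libraries, nearly all of it Aqp2 in the former. Of 4 aquaporins left by the limit, 2 were higher and 2 lower.

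In the neuron list 1 of 2 such genes was higher, L1cam (3.42 against 0.839 CPM), and Map2 was lower (15.8 against 98.0 CPM). The summed neuron list was 68.1 to 72.8 CPM in knockout-labelled and 71.5 to 119.5 CPM in parental libraries. In the fibroblast and mesenchyme list 4 of 7 were higher and 3 lower. Col1a1 (1026 against 4.36 CPM) and Pdgfrb (127 against 0.992 CPM) were higher, while Fn1 was lower (214 against 10030 CPM). The other genes called lower, Postn and Dcn, overlapped between parental and knockout-labelled libraries. Postn had 7 and 4 reads in LM9 replicates 2 and 3, against 66 to 92 in knockout-labelled libraries and 5211 to 6745 in the other parental libraries. In the skeletal and cardiac muscle list 0 of 5 were higher and 3 lower by limma-voom, where the full list had 1 to 3 higher over the alternatives tried. In the mammary luminal list 1 of 10 was higher (Esr1) and 8 lower, and its summed CPM was 226.9 to 235.9 in knockout-labelled and 1019 to 1438 in parental libraries. In the macrophage list 0 of 4 were higher and 4 lower. No gene of the pluripotency list was measured.

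Under the same limit the endothelial list had 2 of 6 higher and 3 lower, germ line 1 of 2 and 1, hepatocyte and gut endoderm 0 of 1 and 0, melanocyte and neural crest 0 of 2 and 0, mammary basal and myoepithelium 0 of 2 and 2, and glia 0 of 2 and 2. The basal gene Trp63, called lower, had 1 and 7 reads in LM9 replicates 2 and 3 and 446 to 621 in the other parental libraries. Knockout-labelled libraries gave 6 to 15 reads of it, so the groups overlapped. Cartilage and bone had 1 of 5 higher and 3 lower, adipocyte 0 of 3 and 3, imprinted genes 1 of 7 and 4, gonad and adrenal 0 of 3 and 2, and lymphocyte 0 of 1 and 1, while the erythroid list had no gene left.

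The selection used the contrast between the knockout labels only through its minimum of 10 CPM in all 6 libraries, which kept out any gene on under 1 label alone. Within that limit, no member differed between LM1KO and LM9KO (limma-voom on 12 libraries, adjusted p under 0.05 in 0 of 150), where 0% of all 18176 tested genes did. Unadjusted p-values under 0.05 were found for 2 members (1.33%) with limma-voom, beside 178 of all tested genes (0.979%) and 14 of the 9950 genes with at least 10 CPM in each knockout-labelled library (0.141%), and for 0 with edgeR or DESeq2. A fit of only the 6 knockout-labelled libraries gave 13 such members (8.67%), beside 7.62% of all genes and 9.23% of the 9950 genes in that fit, and again 0 members past adjustment, while 6 of 16803 genes (0.0357%) passed. The largest fitted log2 differences were those of Gm11397 (-0.26, SE 0.088, adjusted p = 1.00 by limma-voom over all genes) and Gm42517 (0.17, SE 0.062, adjusted p = 1.00). Gm11397 averaged 12.1 CPM in LM1KO and 14.5 CPM in LM9KO. Aqp2 averaged 1202 ± 27.2 CPM (SD, n = 3) in LM1KO and 1112 ± 40.0 CPM in LM9KO, a log2 difference of 0.11 (SE 0.062). In the limma-voom fit of only the 6 knockout-labelled libraries, Aqp2 had an unadjusted p of 0.00036 and an adjusted p of 0.24. Over all members the median absolute log2 difference was 0.0394 and the median SE 0.0866. These SEs come from the fit of 12 libraries, so they also draw on the spread of parental libraries with few reads of the members. The 3 libraries of each label did not overlap for 24 of 150 members, beside 14.7% of the same 9950 genes.

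**Figure D5:**
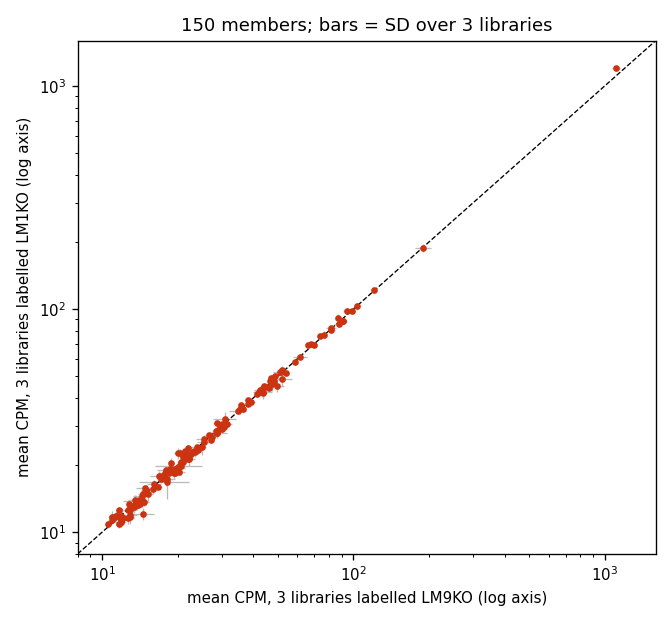
Mean CPM of the 150 members in the 3 libraries labelled LM1KO against the 3 labelled LM9KO (both log axes), with bars of 1 SD and a dashed line of equality. Label means from 10.58 to 1202 CPM lie along the line, and the largest fitted log2 difference was 0.26 in size.

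Spread within the 6 knockout-labelled libraries was small for most members. The CV had a median of 4.03% (range 1.40% to 18.1%), against 3.18% for the 9950 genes with at least 10 CPM in each of these libraries. The steadiest members were Moxd1, Pla2g5 and Lrp4. Only 3 exceeded a CV of 10%, namely Prrg1, Dach2 and Gm11397. Prrg1, a vitamin K-dependent membrane protein gene on the X chromosome, measured 18.3, 18.6 and 13.7 CPM in LM1KO and 13.5, 21.02 and 19.8 CPM in LM9KO. Dach2, a transcriptional cofactor also on the X chromosome, measured 20.9, 20.9 and 17.8 CPM in LM1KO and 15.7, 23.9 and 22.2 CPM in LM9KO. Both were lowest in LM1KO replicate 3 and LM9KO replicate 1 and highest in LM9KO replicate 2, so their spread lay within the labels. Over all members, LM9KO replicate 1 was the lowest of the 6 for 39 (26%, beside 19.2% of the 9950 genes) and LM9KO replicate 2 the highest for 39 (26%, beside 17.4%).

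Values near the selection limits changed without a gap. The members with the lowest knockout-labelled library were Rflna (10.2 CPM), Capn6 (10.4 CPM) and Pax3 (10.5 CPM). Just outside stood Hopx, Ptn and Slurp1, whose lowest libraries were at 9.98, 9.87 and 9.87 CPM and which had no parental read. At the other limit, 19 members reached 3 reads in a parental library, the highest of them Prrx1, Slc16a9 and Slc16a3. Another 12 genes had 4 reads in 1 or more parental libraries and at least 10 CPM in every knockout-labelled library, led by Bcat1, Mgll and Nkd2 at means of 223, 208 and 144 CPM.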

How the data were processed

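The RNA of 12 tumoursphere libraries (4 groups of 3, read from the sample titles) was measured by single-end sequencing of stranded poly-A libraries. The authors aligned reads to the mm10 build with STAR and counted the 5′ ends of reads over the union of exons of each gene with QuasR, and they deposited raw counts per gene, unpooled. Versions, annotation release and handling of multi-mapping reads are not given in the sources used here. No listed gene had under 8 counts in its third-highest library, so low genes appear to have been removed.

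Names, positions and lengths came from GENCODE M21 on GRCm38, the assembly of mm10, which matched 18268 identifiers. CPM was the count divided by the library total (29249075 to 37162594). Between-gene levels were divided by exonic length. Intervals and floors of 3 counts cover counting error only.

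Tests used limma-voom as in the study (R 4.3.3, limma 3.58.1, edgeR 4.0.16 with filterByExpr, TMM and a group-means model), two-sided, with Benjamini-Hochberg adjustment over 18176 genes and a threshold of 0.05, and were tested on simulated data. DESeq2 1.42.0 and edgeR quasi-likelihood fits were alternatives. Replicate numbers did not pair the samples (correlation of deviations -0.033 to 0.026).

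The members, gene lists and tests were chosen with earlier results of these data known. Named are the 12 members of highest CPM per kb, members in a list or within 100 kb of another, those of extreme CV, those of smallest p between knockout labels, those at the limits and up to 5 per role. Roles were assigned by hand from gene names, and other members named were chosen after their values were seen. Promoters came from RefSeq on GRCm38.p6, matched by symbol.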

Additional observations from a re-analysis of the deposited data

How the results depend on the processing

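The number of members followed the limits set for it. No read in any parental library left 48, a minimum of 5 CPM gave 242 and of 20 CPM 81, against 150, while allowing up to 10 parental counts gave 222. Scaling the CPM by TMM gave 137, and leaving out 1 library gave 151 to 158. Members near another member numbered 4 at 100 kb and 18 at 500 kb. With a replicate block, 0 members differed between LM1KO and LM9KO and 163 flanking genes and 52 list genes were higher, against 162 and 53 without it. The same fit on the 6 knockout-labelled libraries alone (added after seeing the data) also gave 0. Over the other alternatives, members differing between the knockout labels stayed at 0, flanking genes higher ran from 160 to 177 and list genes higher from 52 to 58. Scaling by total counts raised the median log2 fold change over the tested genes by 0.29, from 0.11 to 0.40, and gave the 177 and the 58. The main list count of 53 includes genes that met the count limits. Alternatives chosen after seeing the data gave 47 list genes higher without those, 26 with only genes of over 3 reads in a parental library, and 15 with only genes of 8 or more reads in at least 3 parental libraries. Flanking genes higher were 123 and 108 under the latter pair of limits. Fewer genes were tested in each. Of the lists, skeletal and cardiac muscle ranged from 1 to 3 genes higher. Depth limits statements on parental libraries to levels above 0.0876 to 0.103 CPM.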
